A study of Mus musculus with 6 samples.

Results

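Semaphorins, plexins and neuropilins form a guidance system of ligands and receptors. The 31 genes described here were taken as a named list of 20 semaphorins (the ligands), 9 plexins and 2 neuropilins (the receptors), out of 53379 genes in the table, and all 31 were detected well enough to be tested. They were measured by bulk RNA sequencing in the cortex of newborn mice at postnatal day 0, strain C57BL/6. There were 3 samples heterozygous for Npas3, which encodes a transcription factor of the bHLH-PAS family, written Npas3+/-, and 3 wild-type (WT) samples. How the allele was made is not given in the sources used here. Neither is it stated that replicates are separate animals, so each p-value reflects the spread between the libraries at hand, part of which may be technical.

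Semaphorins share an extracellular sema domain and steer growing axons, dendrites and migrating neurons. Secreted semaphorins of class 3 mostly bind neuropilins, which have no signalling tail of their own and pass the signal to a plexin partner, whereas the membrane-bound classes 4, 5 and 6 and the lipid-anchored Sema7a act on plexins or integrins directly. Plexins carry a cytoplasmic GTPase-activating domain that acts on small GTPases and loosens adhesion and the cytoskeleton. In the developing cortex the system is known for guiding callosal and corticofugal axons, for orienting apical dendrites and for routing interneurons around the striatum.

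Total counts ran from 67378231 to 87811574 per library. Npas3 itself stood at 12.6 ± 3.45 CPM (counts scaled to library size; SD, n = 3) in Npas3+/- cortex and 25.9 ± 2.53 CPM in WT, and the groups did not overlap (log2 fold change -1.04, SE 0.20, adjusted p = 0.27 in edgeR). All 8 markers of cortical projection neurons were detected, with summed levels of 2476 to 3302 CPM in Npas3+/- and 2426 to 2683 CPM in WT. Xist was high in 1 library, Npas3+/- replicate 2, at 3667 CPM, and at 2.025 CPM or less in the others. High Xist was therefore not balanced between the genotypes. Markers of striatum and ganglionic eminence set the libraries apart within each genotype. Their score, the mean log2 deviation of the markers from the average of the 6 libraries, stood in replicate order at -1.22, -1.23 and 0.56 for Npas3+/- and at 1.01, 1.36 and -0.49 for WT, so Npas3+/- replicate 3 and WT replicate 3 lay on the other side from the rest of their groups. In bulk tissue, fewer cells of a type and less RNA per cell cannot be told apart.

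Gene for gene, receptors were more abundant than ligands when levels are taken per length. The median level was 22.7 RPKM (CPM per kilobase of exon) over the 11 receptors and 5.59 RPKM over the 20 ligands, against 2.75 RPKM over all genes tested. The highest ligand was Sema7a, the lipid-anchored semaphorin, at 62.5 ± 6.90 RPKM in WT (SD, n = 3). It made up 24.4 to 27.6% of the summed ligand RPKM in WT libraries and 28.7 to 34.4% in Npas3+/- libraries. After it came Sema4g, a transmembrane ligand of class 4, at 25.9 ± 4.12 RPKM in WT and 29.6 ± 1.44 RPKM in Npas3+/-, and Sema6b, a transmembrane ligand of class 6, at 26.6 ± 0.935 and 28.6 ± 0.779 RPKM. Sema6c and Sema4c lay in the same range, at 23.4 ± 2.92 and 26.0 ± 3.76 RPKM in WT, so the order of these 4 was not resolved by the spread between libraries.

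The A-type plexins, the usual signalling partners of neuropilins, were the 4 highest receptors. In WT they stood at 35.5 ± 1.24 RPKM for Plxna1, 32.5 ± 2.65 for Plxna2, 31.8 ± 2.56 for Plxna4 and 31.2 ± 3.36 for Plxna3, values that lie within or close to each other's spread. Together they made up 56.9 to 63.6% of the summed receptor RPKM in WT. Plxnb2, Plxnb1 and Plxnd1 followed at 22.1 ± 0.788, 21.8 ± 1.26 and 21.3 ± 7.44 RPKM. The neuropilins were lower, with 6.53 ± 1.27 RPKM for Nrp1 and 4.96 ± 2.27 RPKM for Nrp2, as was Plxnc1 at 7.24 ± 0.732 RPKM.

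At the low end, 5 genes stayed below 1 RPKM in mean WT level. They were the secreted ligands Sema3e (0.951 ± 0.153 RPKM), Sema3b (0.57 ± 0.13), Sema3d (0.469 ± 0.159) and Sema3g (0.327 ± 0.0502), and the receptor Plxnb3 (0.182 ± 0.0606), whose counts went down to 44 in a library. The other ligands of class 3, Sema3f, Sema3c and Sema3a, stood at 10.1 ± 0.744, 9.60 ± 1.57 and 3.02 ± 0.351 RPKM. A total of 25 members had at least 1000 counts in each library.

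**Figure D1:**
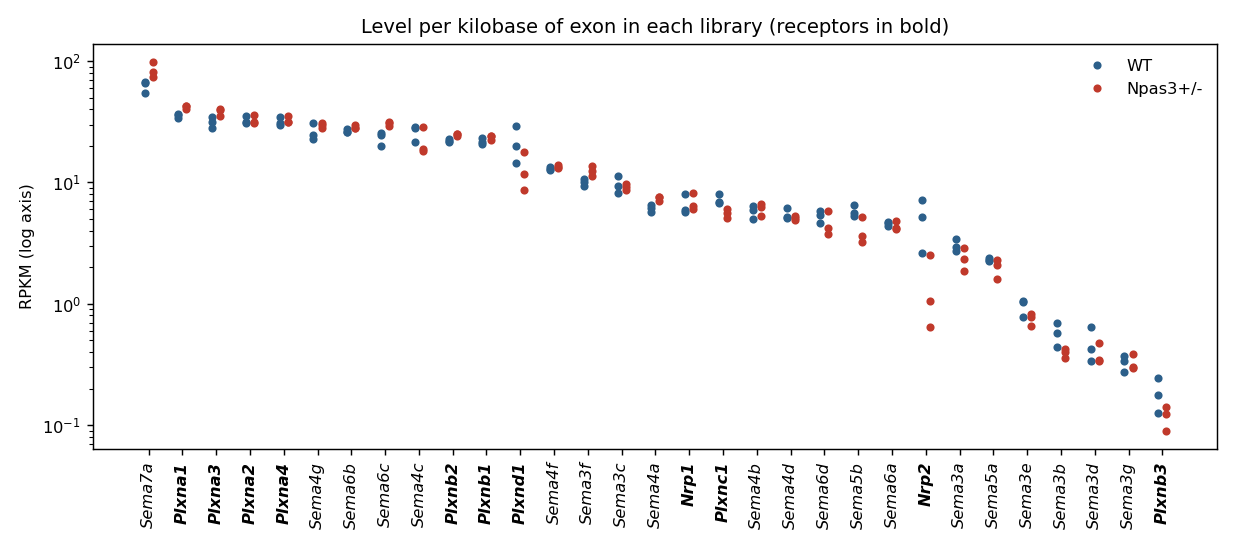
Level of each member in RPKM on a log axis, ordered by the mean of all libraries, with 1 point per library (blue, WT; red, Npas3+/-) and receptor names in bold. Sema7a leads and the 4 A-type plexins follow. Nrp2 has the log2 fold change of largest size, but its groups nearly touch, at 2.53 RPKM (Npas3+/- replicate 3) and 2.605 RPKM (WT replicate 1).

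The comparison of genotypes asked how these genes differ between Npas3+/- and WT cortex. By edgeR's quasi-likelihood test with adjustment over every gene, 0 of 31 members passed (smallest adjusted p = 0.27), where 0.0377% of all genes passed, 0.0282% higher and 0.00941% lower. At an unadjusted p under 0.05 there were 11 members, 7 higher and 4 lower in Npas3+/- cortex, against 12.1% of all genes tested (6.29% higher and 5.84% lower). For 12 members, 8 higher and 4 lower, the groups did not overlap in CPM, against 18.9% of all genes (9.70% higher and 9.18% lower). Of the 26 members with a mean of at least 10 CPM, 11 were at an unadjusted p under 0.05 and 11 had groups without overlap, where 17.7% and 24.8% of all genes at that level were. DESeq2, the other count model run, called 4 members over all genes (Sema7a, Sema6c and Plxna1 higher, Plxnc1 lower), where it called 3.40% of the genes to which it gave an adjusted p, 1.88% higher and 1.51% lower.

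Ligands and receptors did not separate by direction. Of the 20 ligands, 9 had positive and 11 negative log2 fold changes (Npas3+/- over WT) with a median of -0.07, and of the 11 receptors 7 were positive and 4 negative with a median of 0.04; over all genes 48.2% were positive, 51.8% negative and the median was -0.01. At an unadjusted p under 0.05 there were 4 ligands higher and 1 lower, and 3 receptors higher and 3 lower. The largest differences in either direction were on opposite sides: the most positive member was the ligand Sema7a and the most negative was the receptor Nrp2. With the striatal marker score as a covariate both medians changed sign, to 0.029 for ligands and -0.10 for receptors. The receptor median was also negative without Npas3+/- replicate 2 (-0.024) and without WT replicate 2 (-0.015), and was 0.0015 without WT replicate 1. In the fit with the striatal score, 5 members were at an unadjusted p under 0.05, where 6.20% of all genes were.

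Summed over the family, ligand transcripts were at 256, 284 and 262 RPKM in the 3 Npas3+/- libraries and at 244, 224 and 246 RPKM in the 3 WT libraries, so the groups did not overlap. Without Sema7a the ligand sum was 181.1 to 186.2 RPKM in Npas3+/- and 168.9 to 180.7 RPKM in WT, still without overlap but by a narrow gap. The receptor sum was 218, 225 and 220 RPKM in Npas3+/- and 209, 215 and 222 RPKM in WT, with overlap. The 4 A-type plexins summed to 137.9 to 153.5 RPKM in Npas3+/- and 122 to 141 RPKM in WT, which overlap as well.

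**Figure D2:**
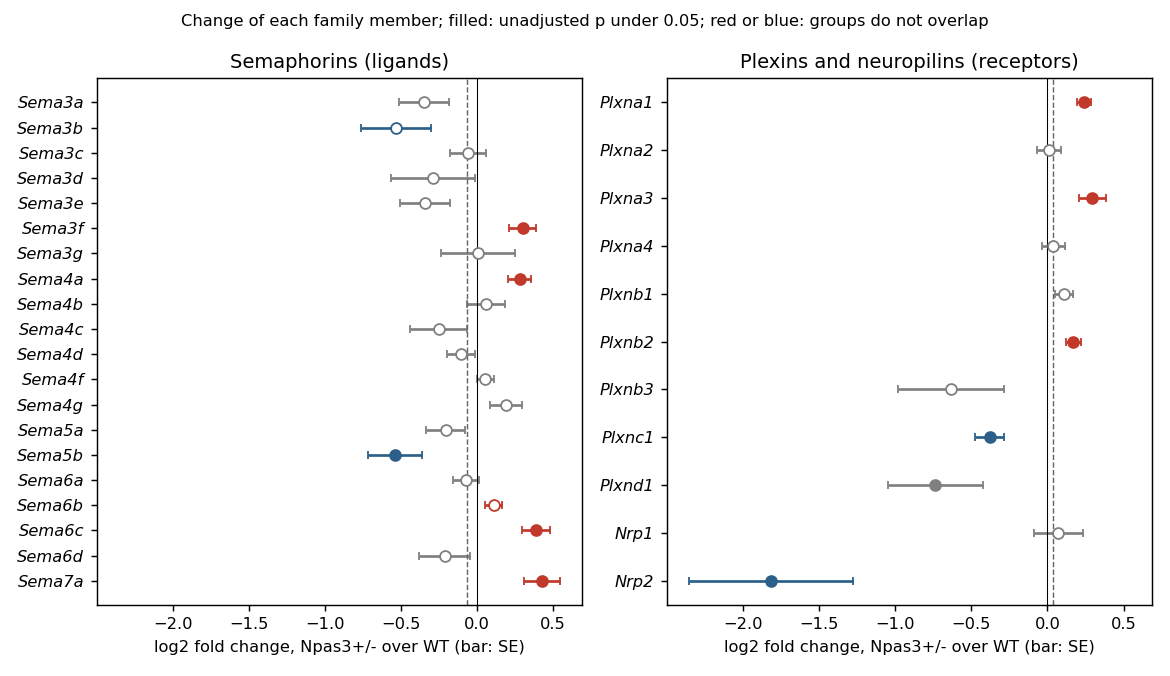
Log2 fold change of each member (Npas3+/- over WT) with its SE, ligands on the left and receptors on the right; filled points have an unadjusted p under 0.05, and colour marks members whose groups do not overlap. The dashed lines are the medians, -0.07 for ligands and 0.04 for receptors, and Nrp2 stands far to the left.

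Sema7a (chromosome 9, 57940112 to 57962865, mm10) is a lipid-anchored semaphorin that promotes axon growth through integrins and binds Plxnc1. Its levels were 242, 322 and 268 CPM in Npas3+/- and 222, 180 and 216 CPM in WT, here and below in replicate order. All 3 Npas3+/- libraries were above all 3 WT libraries, with replicate 2 highest. The log2 fold change was 0.43 (SE 0.12), 134% of the WT level, and the adjusted p was 0.276 in edgeR and 0.0332 in DESeq2. Plxnc1 (chromosome 10, 94790866 to 94944835), the plexin that receives Sema7a, stood at 50.3, 42.9 and 46.3 CPM in Npas3+/- and 57.9, 67.4 and 56.0 CPM in WT. Here every Npas3+/- library was below every WT library. The log2 fold change was -0.38 (SE 0.10), 76.9% of WT, with an adjusted p of 0.276 in edgeR and 0.0275 in DESeq2. With the striatal covariate the log2 fold changes were 0.35 and -0.31.

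RefSeq promoter windows on GRCm38.p6, the build named in the submitters' notes as mm10, were at hand for 26 of the 31 members. The 250 bases before the start of Sema7a and Plxnc1, the pair just described, and of Nrp2, the most negative member, are shown 5′ to 3′ on the strand of the gene. Capitals mark GGGCGG, the GC box bound by Sp family factors, on either strand; overlapping matches run together.
Sema7a, chr9:57939862-57940111, plus strand: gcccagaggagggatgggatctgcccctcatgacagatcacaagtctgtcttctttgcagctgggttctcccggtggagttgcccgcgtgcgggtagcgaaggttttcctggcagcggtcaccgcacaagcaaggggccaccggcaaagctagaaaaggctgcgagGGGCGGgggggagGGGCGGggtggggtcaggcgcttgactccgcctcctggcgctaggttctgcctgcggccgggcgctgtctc
Plxnc1, chr10:94944846-94945095, minus strand: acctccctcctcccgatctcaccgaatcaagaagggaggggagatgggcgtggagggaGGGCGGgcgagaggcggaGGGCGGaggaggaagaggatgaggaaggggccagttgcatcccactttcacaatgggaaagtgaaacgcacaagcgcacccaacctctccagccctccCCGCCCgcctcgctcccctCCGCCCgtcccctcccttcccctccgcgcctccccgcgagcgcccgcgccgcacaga
Nrp2, chr1:62703067-62703316, plus strand: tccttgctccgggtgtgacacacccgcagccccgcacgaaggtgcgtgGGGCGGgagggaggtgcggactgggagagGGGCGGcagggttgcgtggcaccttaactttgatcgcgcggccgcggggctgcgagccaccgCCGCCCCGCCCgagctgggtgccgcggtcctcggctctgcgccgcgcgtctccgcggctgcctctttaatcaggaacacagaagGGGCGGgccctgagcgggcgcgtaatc
The GC box occurred in 2 places before Sema7a, 4 before Plxnc1 and 5 before Nrp2. Of the 26 members with a window, 21 held it in at least 1 window, against 32.7% of 32851 windows of all genes, whose median GC content was 52.4%; these 3 windows had 66.4, 68.8 and 72.4%. Some members have several windows, so a count of members is not on the scale of a share of windows. The core ACGTG, read by ARNT-containing dimers of bHLH-PAS factors, was searched on both strands (it is also part of the E-box CACGTG). It was found before 6 members, Sema3c, Sema4b, Sema4d, Sema4g, Sema6b and Sema6d, against 16.6% of all windows. Its letters were in no window of the 9 members with a window that were at an unadjusted p under 0.05. At a share of 16.6%, 9 members are too few to tell this from the share over all windows. No window was at hand for Sema3b, Sema3f, Sema6a, Plxna1 and Plxna4, of which Sema3f and Plxna1 were also at that p.

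Nrp2 (chromosome 1, 62703285 to 62818695), the neuropilin that binds Sema3f and marks tangentially migrating interneurons, showed the largest difference of the family. Its levels were 12.4, 7.61 and 30.0 CPM in Npas3+/- and 30.8, 84.4 and 60.9 CPM in WT. The groups did not overlap, but Npas3+/- replicate 3 lay less than 1 CPM below WT replicate 1, and levels varied widely inside each genotype. The Npas3+/- mean was 28.4% of WT, with a log2 fold change of -1.82 (SE 0.54, 95% confidence interval -3.07 to -0.56) and an adjusted p of 0.289 in edgeR and 0.13 in DESeq2. Leaving out single libraries moved the value between -2.54 and -1.46. Nrp1, the neuropilin that binds Sema3a, was at 80.2, 58.6 and 62.4 CPM in Npas3+/- and 57.4, 56.0 and 78.2 CPM in WT. Its log2 fold change was 0.07 (95% confidence interval -0.31 to 0.45) and the groups overlapped throughout.

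Plxnd1 (chromosome 6, 115954811 to 115995005), the receptor of Sema3e that does not need a neuropilin, was at 63.7, 85.3 and 131 CPM in Npas3+/- and 146.5, 214 and 106 CPM in WT. The groups overlapped, since Npas3+/- replicate 3 was above WT replicate 3. The log2 fold change was -0.74 (SE 0.31) with an adjusted p of 0.404 in edgeR. Leaving out Npas3+/- replicate 3 gave -1.06 and leaving out WT replicate 2 gave -0.44; the value was -0.15 with the striatal marker score as a covariate. Sema3e, its ligand, had a log2 fold change of -0.34 (SE 0.17) at 6.97 ± 0.819 CPM in Npas3+/- and 8.83 ± 1.42 CPM in WT.

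Sema5b (chromosome 16, 35541145 to 35664732), a transmembrane ligand with thrombospondin repeats that repels cortical axons, was at 25.5, 22.95 and 36.5 CPM in Npas3+/- and 37.5, 46.1 and 40 CPM in WT. The 3 Npas3+/- values lay below the WT values, with replicate 3 less than 1 CPM below WT replicate 1. The log2 fold change was -0.54 (SE 0.18), with an adjusted p of 0.323 in edgeR, and -0.31 with the striatal covariate. Its relative Sema5a stood at 37.3 ± 6.45 CPM against 43.0 ± 1.58 CPM (log2 fold change -0.21, 95% confidence interval -0.50 to 0.09), with overlap, and its value was -0.07 without Npas3+/- replicate 2 and -0.31 without Npas3+/- replicate 1.

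In Nrp2, Plxnd1 and Sema5b, Npas3+/- replicates 1 and 2 were the lowest 2 of the 6 libraries and Npas3+/- replicate 3 was nearest to WT. The striatal markers also placed the Npas3+/- group in this order, but not they alone. The same score for radial glia and astrocyte markers was -0.35, -0.43 and 0.05 in Npas3+/- and 0.25, 0.33 and 0.15 in WT. Interneuron (-0.20, -0.18 and -0.12 in Npas3+/-), microglia and endothelial markers had this order too. Cortical projection neuron, oligodendrocyte, meningeal and thalamic markers did not. Of the 17 striatal and ganglionic eminence markers 14 were lower in Npas3+/-, with a median of -1.11, and their summed level was 165 to 412 CPM in Npas3+/- and 183 to 407 CPM in WT. The highest of these sums, in Npas3+/- replicate 3, includes 225.7 CPM of Foxp1, 1 of the 3 markers that were higher, which was at 60.1 to 86.4 CPM in the other libraries. None of these 17 was at 0 counts in any library. Of the 10 interneuron markers 8 were lower (558 to 663 against 653 to 778 CPM), and the 12 radial glia and astrocyte markers were all lower (694 to 893 against 1064 to 1160 CPM). With the striatal score as a covariate Nrp2 stood at -1.42, Plxnd1 at -0.15 and Sema5b at -0.31. The part of the interneuron and glial markers in these differences was not tested.

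**Figure D3:**
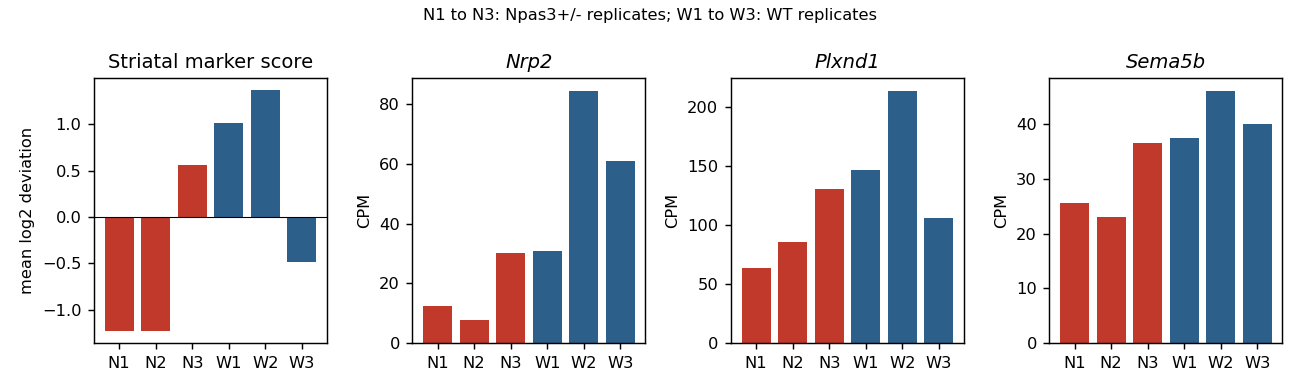
Striatal marker score (mean log2 deviation from the 6 libraries) and the CPM of Nrp2, Plxnd1 and Sema5b in each library. Npas3+/- replicates 1 and 2 (N1, N2) are lowest in all 4 panels, while WT replicate 3 (W3) has a negative score of -0.49 but 60.9 CPM of Nrp2.

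Among A-type plexins, Plxna1 and Plxna3 were higher in every Npas3+/- library, and Plxna2 and Plxna4 were not. Plxna1 (chromosome 6, 89316314 to 89362620), a co-receptor for class 3 and a receptor for class 6 semaphorins, was at 384, 389 and 367 CPM in Npas3+/- and 329, 309 and 328 CPM in WT. It had the narrowest spread of the family relative to its difference (log2 fold change 0.24, SE 0.05), with an adjusted p of 0.27 in edgeR and 0.0199 in DESeq2. Of its exon bases, 10.7% overlap Gm26811 on the opposite strand, and counting by strand is not given in the sources used here. Plxna3 (chromosome X, 74329066 to 74344689), a partner of Nrp2 in Sema3f signalling, was at 319, 311 and 276 CPM in Npas3+/- and 247, 219 and 272 CPM in WT (log2 fold change 0.29, SE 0.09, adjusted p = 0.296 in edgeR). Plxna3 is X-linked, and it was at 311 CPM in Npas3+/- replicate 2, the library with high Xist. Whether Xist status bears on the difference was not tested. With the striatal covariate the log2 fold change of Plxna3 was 0.14.

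Plxna2, the receptor of Sema6a, was at 537, 613 and 533 CPM in Npas3+/- and 538, 525 and 609.6 CPM in WT, a log2 fold change of 0.01 (95% confidence interval -0.17 to 0.19). Plxna4, which serves both Sema3a and class 6 ligands, was at 461 ± 34.7 CPM against 448.5 ± 36.2 CPM, a log2 fold change of 0.04 (95% confidence interval -0.14 to 0.22). These intervals allow differences of up to their bounds in either direction. The difference between the A-type plexins in their response was not tested.

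Among the B-type plexins, Plxnb1 and Plxnb2, receptors of class 4 semaphorins, were well counted and showed small positive differences. Plxnb2 (chromosome 15, 89155549 to 89180788) was at 187, 194 and 195 CPM in Npas3+/- and 170.3, 165 and 177 CPM in WT, without overlap (log2 fold change 0.17, SE 0.05, adjusted p = 0.288 in edgeR). It was 0.11 with the GC correction. Plxnb1, the receptor of Sema4d, was at 226 ± 9.49 CPM against 209 ± 12.1 CPM (0.11, 95% confidence interval -0.03 to 0.25), with overlap, and at 0.03 with that correction. Plxnb3 was near the floor of detection, at 0.763 ± 0.166 CPM against 1.18 ± 0.393 CPM (-0.63, or -0.36 without WT replicate 2).

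**Figure D4:**
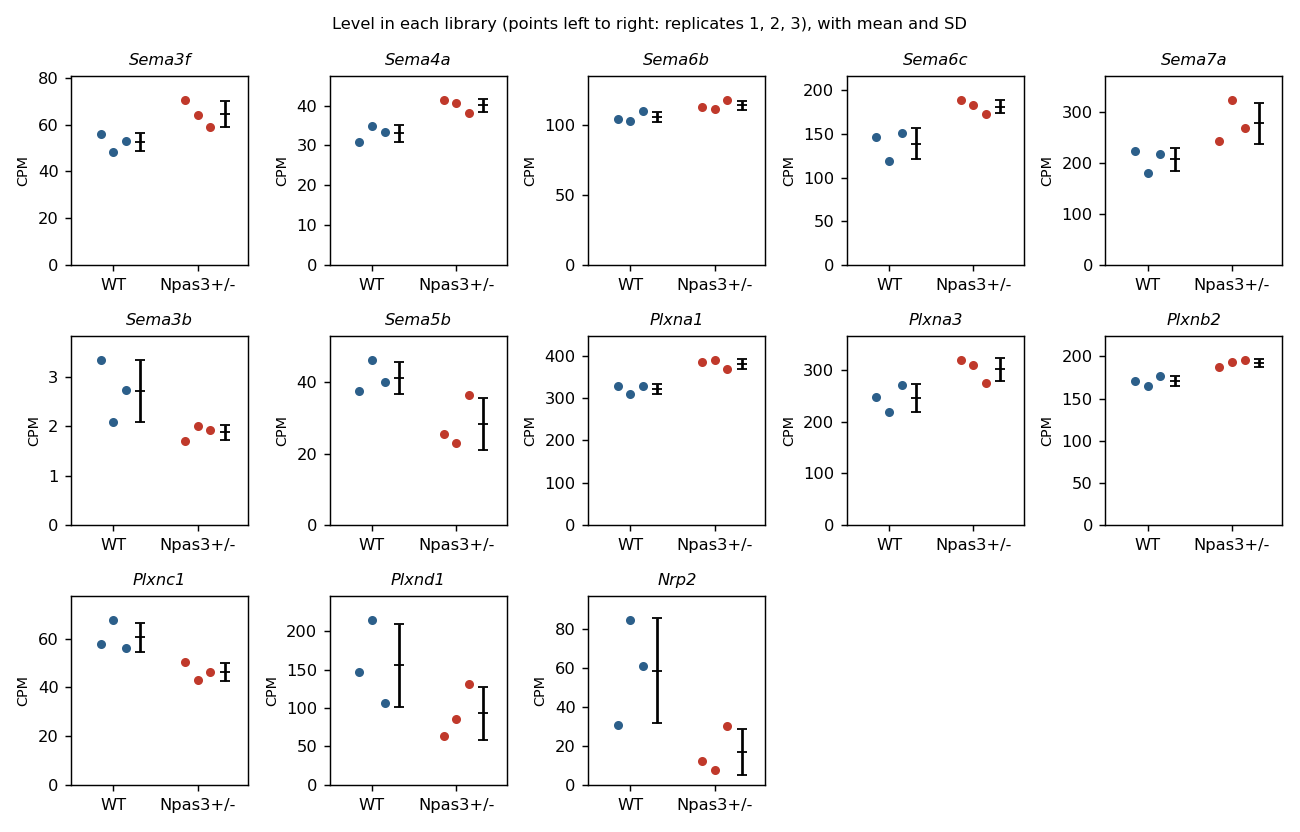
CPM in each library for the 12 members whose groups do not overlap and for Plxnd1; points are replicates 1, 2 and 3 from left to right and the bar is the mean with SD. Sema7a, Sema6c and Plxna1 lie higher in all Npas3+/- libraries, and Nrp2 and Plxnd1 have the widest spread.

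Of the ligands of class 6, which signal from the membrane to A-type plexins, Sema6c had the clearest difference. Sema6c (chromosome 3, 95160457 to 95174024) was at 188, 183 and 173 CPM in Npas3+/- and 146, 119 and 151 CPM in WT, so each Npas3+/- library was above each WT library. The log2 fold change was 0.38 (SE 0.09), with an adjusted p of 0.276 in edgeR and 0.0192 in DESeq2. Sema6b was at 112, 111 and 117 CPM against 104, 103 and 109.7 CPM, also without overlap but smaller (0.11, SE 0.05), and its value was -0.0023 with the GC correction. Sema6a (-0.07, 95% confidence interval -0.27 to 0.12) and Sema6d (-0.21, -0.60 to 0.17), ligands of Plxna2 and Plxna1, overlapped between genotypes. Sema6a was at -0.03 without Npas3+/- replicate 2 and -0.14 without Npas3+/- replicate 3, and Sema6d at -0.09 without Npas3+/- replicate 1 and -0.41 without Npas3+/- replicate 3.

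In class 4 the members mostly stayed within the spread of the libraries. Sema4a (chromosome 3, 88435959 to 88461182), a transmembrane ligand also known in immune cells, was at 41.3, 40.7 and 38.2 CPM in Npas3+/- and 30.8, 34.95 and 33.3 CPM in WT, without overlap (log2 fold change 0.28, SE 0.08, adjusted p = 0.276 in edgeR). Sema4g was at 269, 255 and 244 CPM against 211, 198 and 265 CPM; WT replicate 3 lay inside the Npas3+/- range, and the log2 fold change was 0.19 (95% confidence interval -0.06 to 0.44). Sema4c, the ligand of Plxnb2, varied most, from 82.6 to 131 CPM in Npas3+/- and from 99.6 to 130.4 CPM in WT (-0.25, -0.69 to 0.18). Left-out libraries moved it between -0.49 and -0.13 (Npas3+/- replicates 2 and 1), and Sema4g between 0.10 and 0.33 (WT replicates 2 and 3). Sema4d, Sema4b and Sema4f had log2 fold changes of -0.10, 0.06 and 0.05, and for Sema4f the interval ran from -0.08 to 0.19. Sema4d stood at -0.0085 without WT replicate 3 and -0.15 without WT replicate 1.

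Class 3, the secreted ligands, had 5 of 7 members with negative log2 fold changes and a median of -0.29. Sema3f (chromosome 9, 107681500 to 107710475), the repellent that acts through Nrp2 and Plxna3, differed from most of its class, at 70.3, 64.3 and 58.9 CPM in Npas3+/- and 56.0, 48.3 and 52.9 CPM in WT (log2 fold change 0.30, SE 0.09, adjusted p = 0.29 in edgeR). Each Npas3+/- library was above each WT library. Sema3b begins 72.3 kb away on the same chromosome (107597674 to 107609229) and differed the other way. It was at 1.71, 2.02 and 1.92 CPM in Npas3+/- and 3.34, 2.1 and 2.73 CPM in WT, without overlap but with a narrow gap to WT replicate 2 (log2 fold change -0.53, SE 0.23, adjusted p = 0.417 in edgeR).

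Sema3a, Sema3c, Sema3d and Sema3e lie within 5.35 Mb of chromosome 5. Sema3a, the main repellent of cortical axons and attractant of apical dendrites, was at 25.9, 32.7 and 40.1 CPM in Npas3+/- and 40.8, 47.2 and 37.6 CPM in WT, with Npas3+/- replicate 3 inside the WT range (-0.35, 95% confidence interval -0.73 to 0.03). The value was -0.20 without Npas3+/- replicate 1, -0.51 without Npas3+/- replicate 3 and -0.10 with the striatal covariate. Sema3c, which attracts callosal axons, was at 65.6 ± 3.92 CPM against 68.5 ± 11.2 CPM (-0.06), and Sema3d stood at -0.29 with an interval from -0.93 to 0.35. Sema3g, found in vessels, had a log2 fold change of 0.0048. The 4 genes of chromosome 5 have transcripts of 40.1 to 42.5% GC, the lowest of the family.

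Transcript GC content moved with the direction of the differences. Over all genes the median log2 fold change was -0.08 below 44.5% GC (the 1st of 5 equal groups of genes) and 0.07 above 55.65% GC (the last group), which held 18 of the 31 members. Of the 16 members at or above the family's median GC of 56.1%, 10 were positive, and of the 15 below it 6 were. The 7 members higher at an unadjusted p under 0.05 had 55.0 to 61.8% GC. Of the members lower at that p, Sema5b (59.1%) and Plxnd1 (56.3%) lay inside this range, and Plxnc1 (48.7%) and Nrp2 (50.65%) below it. With a correction for this trend in each library, the log2 fold changes were 0.33 for Sema7a, 0.28 for Sema6c, 0.24 for Sema4a, 0.23 for Sema3f, 0.25 for Plxna3 and 0.19 for Plxna1, all smaller, while Sema5b (-0.63) and Plxnd1 (-0.80) were more negative, and Nrp2 (-1.82) and Plxnc1 (-0.36) stood close to their values without it.

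**Figure D5:**
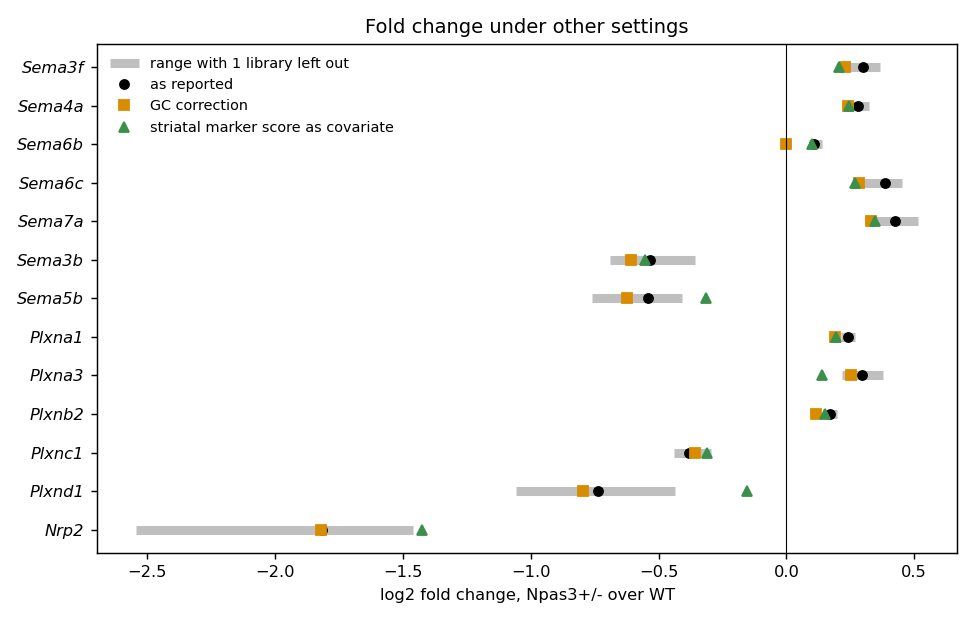
Log2 fold change of the same 13 members as reported, with the GC correction and with the striatal marker score as a covariate, and the range with each library left out in turn. Sema6b is at -0.0023 with the GC correction, Plxnd1 moves from -0.74 to -0.15 with the striatal covariate, and Nrp2 stays below -1.4 in all of these.

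Set side by side, known ligands and their receptors had log2 fold changes of like sign in some sets and of opposite sign in others. Sema7a was at 0.43 with Plxnc1 at -0.38. Sema3f (0.30) and its plexin Plxna3 (0.29) were positive while its neuropilin Nrp2 was at -1.82. Sema3a was at -0.35 with Nrp1 at 0.07 and Plxna4 at 0.04, and Sema3e at -0.34 with Plxnd1 at -0.74. Sema3c was at -0.06, and of its receptors Nrp2 was at -1.82, Plxnd1 at -0.74 and Nrp1 at 0.07. Sema4d was at -0.10 with Plxnb1 at 0.11, and Sema4c at -0.25 with Plxnb2 at 0.17. Sema5a was at -0.21 with Plxna3 at 0.29 and Plxnb3, near the floor of detection, at -0.63. Sema6d was at -0.21 with Plxna1 at 0.24, and Sema6a at -0.07 with Plxna2 at 0.01. Among the sets named here, ligand and receptor both had groups without overlap, with opposite signs, in Sema7a with Plxnc1 and in Sema3f with Nrp2. Both were without overlap and of like sign in Sema3f with Plxna3. Sema3b, Sema4a, Sema5b, Sema6b and Sema6c, also without overlap, were not set beside a receptor, so the sets do not cover all such ligands. Over all genes tested, 18.9% had groups without overlap.

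Genes that act with the receptors were read from a list of 58 co-receptors, cytosolic effectors, kinase and CRMP targets and processing enzymes. Of these, 57 were tested, 33 with positive and 24 with negative log2 fold changes and a median of 0.02. Adjusted over all genes, 0 passed in edgeR, where 0.0377% of all genes did, and 1 passed in DESeq2, where 3.40% did. A further count gave 5 higher and 3 lower at an unadjusted p under 0.05, 14.0% against 12.1% of all genes. The smallest p belonged to Dpysl2, the CRMP2 gene whose protein carries the Sema3a signal to microtubules, at 321, 333 and 311 CPM in Npas3+/- and 289, 249 and 245 CPM in WT (log2 fold change 0.30, SE 0.07, adjusted p = 0.276 in edgeR and 0.0294 in DESeq2). Its relative Dpysl5 was at 0.16 (SE 0.05). Adhesion molecules that join neuropilin complexes differed in direction. L1cam, a partner of Nrp1, was at 0.18 (SE 0.05) and Nrcam, a partner of Nrp2, at -0.27 (SE 0.08), each without overlap between the groups. Chl1, also a partner of Nrp1, was at -0.27 (SE 0.20) and Cntn2 at 0.07 (SE 0.15), both with overlap. Of the 13 co-receptors tested, 5 were positive and 8 negative. Rnd1, a GTPase that binds the plexin tail, was at 0.24 (SE 0.08), and Ranbp9, a plexin-binding scaffold, at -0.19 (SE 0.06).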

How the data were processed

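RNA of 3 Npas3+/- and 3 WT cortex samples was sequenced, and genotype and replicate came from the sample titles; column names with NP were taken as Npas3+/-. The authors deposited raw read counts per gene. Trimmomatic 0.3.8, HISAT2 2.1.0, featureCounts and mm10 are named, per the submitters' processing notes; the annotation release, the strand setting and the treatment of multiply mapped reads are not given in the sources used here. Identifiers were matched without version to GENCODE M21 on GRCm38 (53274 of 53379), which also gave exon lengths and transcript GC content. At most 1.66% of a member's windows of 50 bases (in Plxna2) also lay in transcripts of genes elsewhere.

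Counts were fitted for all genes with edgeR 4.0.16 in R 4.3.3: filterByExpr (21244 genes kept), TMM, a quasi-likelihood fit with genotype as the only term, and Benjamini-Hochberg adjustment with a threshold of 0.05. SEs were derived from the F statistic, and intervals use the moderated degrees of freedom. DESeq2 1.42.0 was run at the same threshold. CPM and RPKM are scaled by TMM. With 3 against 3 an exact permutation test cannot go below p = 0.1, so none was used. Alternatives were RLE and upper-quartile scaling, DESeq2, other filters, the replicate number as a block, a lowess correction on GC (span 0.4) per library, that correction with the block, the score of 17 striatal markers as a covariate, and each library left out. The steps were also run on counts simulated gene by gene from the fitted levels and spread. That simulation held no shared shift of cell type markers and no GC trend, so it does not bear on these, and its outcome is not used here.

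Values are given per library for members at an unadjusted p under 0.05 or without overlap, and for the highest members. Of the pathway list, the 6 genes with the smallest p are named, and Chl1 and Cntn2 beside L1cam and Nrcam. Further cell type lists read beside the members were oligodendrocyte lineage (6 of 8 higher), endothelium and mural cells (7 of 9 lower), meninges (4 of 7 lower), microglia (9 of 9 lower) and thalamus (5 of 7 lower). The members and the lists were chosen with earlier results of these data known.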

Additional observations from a re-analysis of the deposited data

How the results depend on the processing

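Of the 31 members, 22 kept their direction in each of the 15 alternatives that gave them a value (Plxnb3 had none under the filter of 1 CPM and no adjusted p in DESeq2), and the other 9 had log2 fold changes of at most 0.29 in size as reported. The count of genes passing over all genes was 8 as reported, 511 with DESeq2, 3 with the replicate block, 3 with the GC correction and block together, 5 with the striatal covariate, and 7 to 16 with a library left out (16 without WT replicate 1). Members passing numbered 0 in each edgeR fit and 4 with DESeq2; pathway genes passing numbered 0 and, with DESeq2, 1. Members at an unadjusted p under 0.05 numbered 11 as reported (12.1% of all genes), 7 with the GC correction and block (8.92%), 5 with the striatal covariate (6.20%), and 10 to 15 with a library left out (7.82 to 13.7%). With the striatal covariate the medians were 0.029 for ligands and -0.10 for receptors, and with a library left out they ran from -0.096 to -0.023 and from -0.024 to 0.11; the covariate also spends a degree of freedom of 6 libraries. Directions turned with upper-quartile scaling for Sema3g (-0.0081) and Plxna2 (-0.0045), with the filter of 1 CPM for Sema3g (-0.0038), with the GC correction for Sema3c (0.0096), Sema3g (-0.045) and Sema6b (-0.0023), with that correction and the block for Sema3c (0.021), Sema3g (-0.044) and Sema6b (-0.0018), and with the striatal covariate for Sema3d (0.17), Sema6a (0.032), Plxna2 (-0.10), Plxna4 (-0.062) and Nrp1 (-0.13). With a library left out, the ranges that cross 0 were -0.13 to 0.11 for Sema3g, -0.17 to 0.073 for Sema3c, -0.48 to 0.011 for Sema3d, -0.037 to 0.15 for Sema4b, -0.058 to 0.081 for Plxna2, -0.024 to 0.11 for Plxna4 and -0.076 to 0.25 for Nrp1. The cause was not tested. Deviations of same-numbered libraries from their group means correlated at 0.06, -0.09 and -0.19 across genes. Those of differently numbered libraries ran from -0.14 to 0.21. No pairing by number was seen, but with 3 libraries per group, each centred on its group mean, these values cannot decide it. Plxnb3, Sema3g, Sema3b and Sema3d have the fewest counts, with SEs of 0.35, 0.24, 0.23 and 0.28, so small differences in them were not resolved. The part of depth in this was not tested.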
